A study of Mus musculus with 81 samples.

Results

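Genes of the cell cycle and of DNA replication were followed in the RNA of sorted mouse microglia, the resident macrophages of the brain. The set is a list of 48 symbols out of the 25124 genes of each count table, its rule names symbols and no measured value, and all 48 were found in all 6 tables. The list was drawn up with earlier results of these data known. Of the 48, 13 act in S phase (the 5 Mcm genes, Pcna, Rrm1, Rrm2, Tyms, Gins2, Cdc6, Cdc45 and Cdt1), 25 are mitotic, 5 are cyclins and a kinase of the G1/S passage, 3 are transcription factors of the cycle and 2 are brakes on it. The mitotic genes are described apart from the S-phase genes throughout.

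A dividing cell copies its DNA in S phase and separates the copies in mitosis. Mcm proteins form the helicase that opens DNA at replication origins, where Cdc6 and Cdt1 load it and Cdc45 and Gins2 switch it on, while Pcna is the clamp that holds polymerases on DNA and Rrm1, Rrm2 and Tyms make the nucleotides. In late G1, D-type and E-type cyclins release E2F factors, which drive S-phase genes. Later, Foxm1 and the MuvB complexes drive mitotic genes, whose promoters often carry a cell cycle genes homology region (CHR) and CCAAT boxes. Microglia keep up their number by dividing locally, slowly in the healthy brain and faster after injury or loss of myelin.

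The cells came from adult male C57BL/6 mice on a regular diet (baseline) or on 0.2% cuprizone, a toxin that causes loss of oligodendrocytes and myelin. WT and Trem2KO mice received cuprizone for 4 weeks, Cx3cr1CreERT2/WT mice (Cre) for 5 or 6 weeks, Cx3cr1CreERT2/WT::Mef2afl/fl mice (Mef2aKO) for 5 weeks and Cx3cr1CreERT2/WT::Egr2fl/fl mice (Egr2KO) for 5 or 6 weeks. The 3 Cre-bearing genotypes all carry the inducible Cre at Cx3cr1, which is expressed in microglia and other macrophages, and Trem2KO carries none. At 4 and 6 weeks the gates were CD229neg, CD229pos and CD11cpos, where the first and second are CD11c-negative and the last is CD229-positive and was not sorted from Trem2KO. At 5 weeks they were Clec7aneg, Clec7apos, DoublePos (also CD229) and TriplePos (also CD11c). A pair of groups of whole-population microglia, Cre and Egr2KO, was also collected at 5 weeks. CD229 is the product of Ly9 and CD11c that of Itgax, and CD11c and Clec7a are known marks of microglia that respond to damage. Baseline cells were taken as CD44Low CD45Low CD11bLow without these antigens, except for Mef2aKO baseline cells that were also split into CD229neg and CD229pos. A diet step below is thus the CD229neg or Clec7aneg gate on cuprizone minus baseline, and holds the change of gate as well as that of diet. A step between gates compares cells sorted at the same week of diet. Whether cells pass from one gate to the next was not tested.

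There were 81 libraries in 28 groups (5 groups of 2, 21 of 3 and 2 of 4), each made from 2 to 6 pooled brains, so the p-values measure the spread between such pools. Brains were taken up in a buffer with sodium butyrate and flavopiridol (spelled Flavoperidol in the labels), a CDK inhibitor that also stops transcription, in the libraries of all groups.

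RefSeq promoters (GRCm38.p6) were found by symbol for 36 of the 48 members, 3 of them with 2 entries. The 12 members not matched were Gins2, Mcm4, Ccnd1, Ccnd2, Ccne2, Foxm1, Aurkb, Stmn1, Tpx2, Kif20a, Pbk and Ccna2. The 150 bases before the gene start of 10 members named below are shown as examples of both roles, with and without each motif. They were picked with the matches known and are no sample of the set: 5 of the 6 mitotic members printed hold a CHR, as does Mcm2 of the 4 S-phase members. They are Mki67 at chr7:135716380-135716529 (minus strand), Cdk1 at chr10:69352913-69353062 (minus strand), Ccnb1 at chr13:100786487-100786636 (minus strand), Cdc20 at chr4:118437344-118437493 (minus strand), Ube2c at chr2:164769779-164769928 (plus strand), Kif23 at chr9:61946800-61946949 (minus strand), Mcm2 at chr6:88898781-88898930 (minus strand), Mcm6 at chr1:128359706-128359855 (minus strand), Pcna at chr2:132253181-132253330 (minus strand) and Rrm2 at chr12:24708104-24708253 (plus strand). Each is written 5′ to 3′ on the gene's strand, and capitals mark a CCAAT box (CCAAT, or ATTGG where it lies on the other strand), a CHR (TTTGAA or TTTAAA, the first reading TTCAAA on the other strand) or an E2F form (TTTCCCGC, TTTCGCGC, TTTGCCGC or TTTGGCGC, on either strand, which overlap in Mcm6).
Mki67: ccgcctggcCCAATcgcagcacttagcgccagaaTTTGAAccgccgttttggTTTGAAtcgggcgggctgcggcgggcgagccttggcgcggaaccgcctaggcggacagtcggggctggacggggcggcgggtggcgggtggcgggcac
Cdk1: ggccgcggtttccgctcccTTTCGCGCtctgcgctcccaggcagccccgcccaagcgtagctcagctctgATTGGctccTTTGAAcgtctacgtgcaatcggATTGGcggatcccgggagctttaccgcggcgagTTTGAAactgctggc
Ccnb1: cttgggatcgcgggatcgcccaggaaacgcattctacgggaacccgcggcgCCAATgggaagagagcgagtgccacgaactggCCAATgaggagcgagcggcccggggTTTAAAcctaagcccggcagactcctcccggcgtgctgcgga
Cdc20: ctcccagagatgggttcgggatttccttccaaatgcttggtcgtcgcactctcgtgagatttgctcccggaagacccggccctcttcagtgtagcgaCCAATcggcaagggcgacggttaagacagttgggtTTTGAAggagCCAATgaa
Ube2c: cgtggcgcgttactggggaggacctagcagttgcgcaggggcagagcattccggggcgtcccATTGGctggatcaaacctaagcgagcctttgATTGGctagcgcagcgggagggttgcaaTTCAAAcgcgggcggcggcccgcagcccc
Kif23: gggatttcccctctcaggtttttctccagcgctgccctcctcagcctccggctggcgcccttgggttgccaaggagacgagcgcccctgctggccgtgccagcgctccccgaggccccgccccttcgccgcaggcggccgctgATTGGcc
Mcm2: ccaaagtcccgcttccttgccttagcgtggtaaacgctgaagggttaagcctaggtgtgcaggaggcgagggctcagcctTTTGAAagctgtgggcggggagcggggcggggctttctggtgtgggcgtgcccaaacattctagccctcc
Mcm6: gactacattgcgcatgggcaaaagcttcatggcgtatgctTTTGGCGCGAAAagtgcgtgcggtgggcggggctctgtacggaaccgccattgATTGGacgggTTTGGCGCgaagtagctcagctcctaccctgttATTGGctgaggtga
Pcna: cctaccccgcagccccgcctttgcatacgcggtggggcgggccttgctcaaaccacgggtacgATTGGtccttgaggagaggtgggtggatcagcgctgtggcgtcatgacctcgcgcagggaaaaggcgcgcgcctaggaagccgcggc
Rrm2: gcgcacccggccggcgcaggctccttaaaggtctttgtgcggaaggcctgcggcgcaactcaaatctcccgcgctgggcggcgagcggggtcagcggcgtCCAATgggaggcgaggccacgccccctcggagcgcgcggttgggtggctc

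Over the 250 bases before the start, searched on both strands, a CHR was found in 12 of 19 mitotic members (63.2%), in 2 of 11 S-phase members (18.2%) and in 28.1% of 27025 genes. A CCAAT box was found in 18 of 19 mitotic members (94.7%), 8 of 11 S-phase members (72.7%) and 37.5% of all genes. Both motifs together were in 11 of 19 mitotic members (57.9%), against 2 of 11 S-phase members (18.2%) and 11.2% of all genes. The E2F forms, spelled strictly, were in 3 of 11 S-phase members (27.3%), 1 of 19 mitotic members (5.26%, Cdk1) and 2.16% of all genes. These are matches of letters and no test was made of them.

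Library totals ran from 4387075 to 13972985 reads in genes. Levels are given in CPM, counts scaled to the library total. Differences are given as log2 fold change ± standard error from edgeR's quasi-likelihood test. A gene is called where its p, adjusted by Benjamini-Hochberg over all genes of the fit, was under 0.05. Numbers of members under an unadjusted p of 0.05 are no calls, and the share of all genes under it was not counted. Ccne2 was counted on different transcripts in the 2 tables joined at 4 weeks, with unlike counts in the WT baseline libraries they share. It was left out there, so 47 members were tested at 4 weeks and 48 elsewhere. Cdc6 was also on different transcripts in these tables, but its counts in the shared libraries were identical and it was kept. No member was lost to the filter on low counts. Trem2 reads were fewer but present in the 11 Trem2KO libraries (87.5 to 165 CPM, against 347 to 688 in 12 WT libraries). Mef2a did not separate the 19 libraries labelled Mef2aKO (566 to 965 CPM) from 15 Cre libraries (485 to 1065 CPM), and in no gate did all Mef2aKO libraries lie below all Cre libraries. Egr2 was lower in Egr2KO than in Cre without overlap in CD229neg (9.43 to 11.6 against 13.4 to 27.3 CPM), CD11cpos (76.7 to 89.998 against 97.6 to 121 CPM) and the whole population of 5 weeks (18.4 to 26.5 against 65.2 to 68.8 CPM). It overlapped at baseline (2.75 to 4.31 against 2.78 to 4.54 CPM) and in CD229pos (21.2 to 42.5 against 31.3 to 64.3 CPM). Counts are per gene, counts per exon were not analysed here, and the genotype names below are those of the labels. In the 81 libraries markers of T and NK cells summed to 0 to 1.61 CPM and of oligodendrocyte precursors to 0 to 2.68 CPM. B cell markers summed to 6.34 to 29.2 CPM, monocyte markers to 5.04 to 32.9 CPM and oligodendrocyte markers to 160 to 224 CPM. Border macrophage markers summed to 7.37 to 346 CPM, endothelial markers to 62.4 to 347 CPM and the 7 microglial markers to 5275 to 12527 CPM. Neutrophil markers were at a median of 0.117 CPM and reached 16.6 CPM in WT baseline replicate 2. PE150, whose meaning the labels do not give, stands in the titles of 17 libraries, among them replicates 2 and 3 of each 6-week gate.

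At baseline the mitotic genes summed to less than the S-phase genes in every library. Single genes of the 2 roles overlapped. By level per kilobase at WT baseline, the mitotic gene Stmn1 was in place 11 of the 48 members and the S-phase gene Cdc6 in place 48. The 25 mitotic genes summed to 91.03, 117 and 56.3 CPM in the 3 WT baseline libraries, of which the third was lowest. The 13 S-phase genes summed to 239, 226 and 247 CPM in the same libraries. Over all 19 baseline libraries the mitotic sum ran from 56.3 to 219.6 CPM (median 109.9) and the S-phase sum from 219 to 275 CPM (median 245). In the 62 cuprizone libraries the mitotic sum was 238 to 1309 CPM (median 659) and the S-phase sum 276 to 689 CPM (median 447). No cuprizone library had a sum as low as any baseline library on either list. In bulk libraries, more dividing cells and more RNA per dividing cell cannot be told apart.

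The mitotic sum was 0.228 to 0.8289 of the S-phase sum in baseline libraries and 0.763 to 2.34 of it in cuprizone libraries. WT group sums were 88.2 ± 30.5 CPM for mitotic genes at baseline, 545 ± 148 in CD229neg, 1157 ± 132 in CD229pos and 543 ± 194 in CD11cpos (mean ± SD, n = 3 each). S-phase sums in the same order were 237 ± 10.95, 432 ± 61.4, 607 ± 71.9 and 425 ± 65.9 CPM. Both lists were highest in CD229pos, whose libraries (1066, 1097 and 1309 CPM for the mitotic genes) did not overlap with those of the other WT groups.

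**Figure D1:**
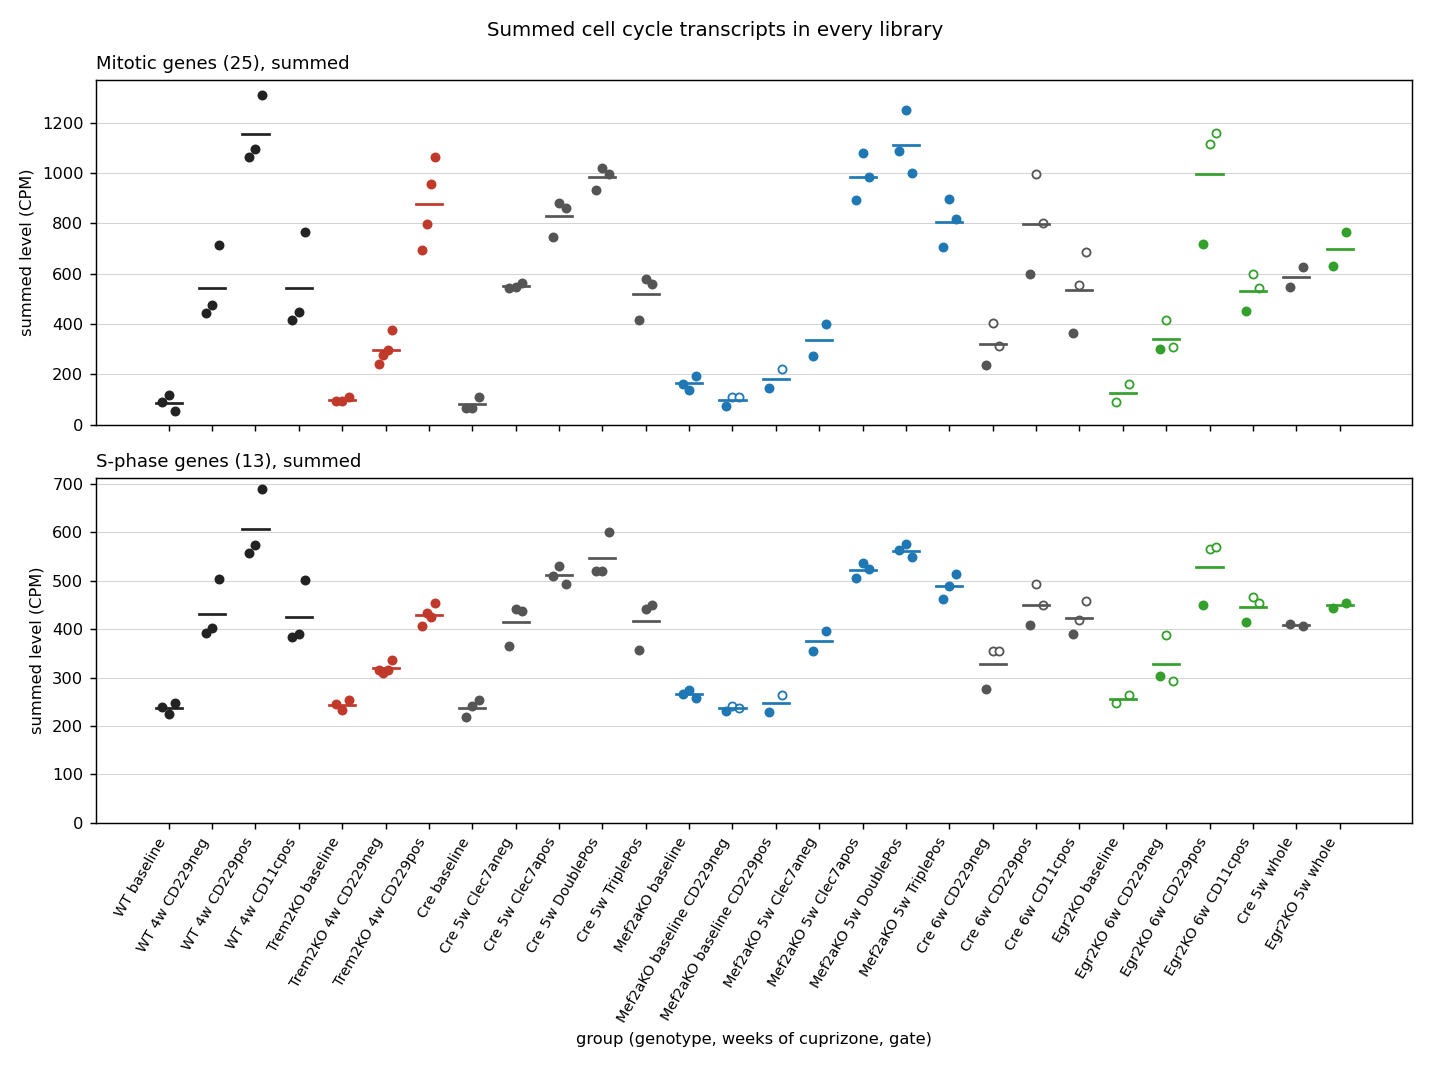
Summed level in CPM of the 25 mitotic genes (upper panel) and of the 13 S-phase genes (lower panel) in each of the 81 libraries, by group. Points are libraries, bars are group means and open circles are libraries with the PE150 tag; black is WT, red Trem2KO, grey Cre, blue Mef2aKO and green Egr2KO. All baseline libraries lie at or under 219.6 CPM in the upper panel, and the CD229pos or DoublePos group has the highest mean of each gated series.

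Per kilobase of transcript, which allows genes to be compared, the leading members in WT CD229pos were Pcna at 67.9 ± 5.67 CPM per kb, the G1 cyclin gene Ccnd1 at 60.9 ± 1.29, the CDK inhibitor gene Cdkn1a at 54.8 ± 3.61, Mcm3 at 37.4 ± 3.06 and the proliferation marker Mki67 at 31.2 ± 3.42 (n = 3). Neighbours among the first 3 of these differed by little more than the sum of their SDs. The lowest were Ccnd2 at 0.5696 ± 0.403 and the helicase loader Cdc6 at 1.29 ± 0.577 CPM per kb. At WT baseline Ccnd1 came first at 58.5 ± 3.999 CPM per kb, before Pcna at 31.8 ± 1.13 and the kinase gene Cdk2 at 23.6 ± 2.32, and Mki67 was at 1.298 ± 0.989, in place 24 of 48.

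The first question was how the cycle genes differed between baseline microglia and the CD229neg cells of WT mice on cuprizone for 4 weeks. Nearly the whole set was higher: 44 of 47 members rose, none fell, and 36 were higher by at least 2-fold, in a comparison where 18.8% of all genes were called higher. All 13 S-phase genes rose with a median log2 fold change of 0.93, and all 25 mitotic genes with a median of 2.86, while the median of all genes was 0.00. The 44 that rose were also those whose 3 cuprizone libraries did not overlap with the 3 baseline libraries, as 20% of all genes did in the same direction. The endothelial marker list was at 87.1, 87.7 and 76.2 CPM at baseline and 104, 106 and 136 CPM in CD229neg, without overlap, and its part in the result was not tested.

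Mki67, the antigen by which dividing cells are usually stained, was at 14.5, 22.2 and 2.45 CPM at WT baseline and at 115, 123 and 183 CPM in CD229neg. Every cuprizone library was far above every baseline library, and baseline replicate 3 was the lowest. The log2 fold change was 3.44 ± 0.34 (adjusted p = 8.81e-09). Top2a, the topoisomerase that untangles chromosomes before they part, went from 8.45, 10.2 and 1.66 to 51.99, 56.9 and 89.5 CPM, and Cdk1, the kinase that starts mitosis, from 4.33, 2.99 and 2.64 to 18.4, 16.4 and 27.5 CPM. Neither pair of groups overlapped. Their log2 fold changes were 3.31 ± 0.35 (adjusted p = 3.42e-08) and 2.69 ± 0.24 (adjusted p = 1.81e-09). Ccnb1, the cyclin that joins Cdk1, rose by 3.14 ± 0.36 (adjusted p = 9.88e-08).

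Most S-phase genes were expressed before the diet and rose less, with Rrm2 and Cdc6 apart from the others. Cdc6 was at 0.151 ± 0.0477 CPM per kb at WT baseline, in place 48 of 48. Mcm2 was at 12.8, 10.8 and 9.498 CPM at baseline and 32.6, 31.7 and 40.7 CPM in CD229neg, and Pcna at 38.9, 38.99 and 41.4 CPM against 57.4, 60.8 and 74.01 CPM. In both genes the groups did not overlap and replicate 3 of CD229neg was the highest. The log2 fold changes were 1.71 ± 0.16 for Mcm2, 1.22 ± 0.13 for Mcm6 and 0.73 ± 0.08 for Pcna (adjusted p = 2.46e-09, 5.1e-08 and 9.39e-08). Rrm2, the cell-cycle-controlled subunit of ribonucleotide reductase, went from 1.47, 2.64 and 0 to 12.9, 16.1 and 21.1 CPM, a log2 fold change of 3.59 ± 0.43 (adjusted p = 1.97e-07), larger than that of any other S-phase member. Its partner Rrm1, which is long-lived and less tied to the cycle, rose by 0.69 ± 0.12.

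Of the transcription factors, E2f1 rose by 2.90 ± 0.25 and Foxm1 by 1.75 ± 0.20 (adjusted p = 8.59e-10 and 1.4e-07). Cdkn1a, which encodes the CDK inhibitor p21 and is a target of p53, rose too, from 18.9, 19.5 and 14.9 to 58.6, 58.7 and 67.9 CPM, with no overlap and a log2 fold change of 1.84 ± 0.12 (adjusted p = 4.68e-12). Of the G1/S genes tested, which leave out the E-type cyclin gene Ccne2, only Ccne1, also of E type, rose (3.33 ± 0.48). Ccnd1 was at 239, 216 and 210.4 CPM at baseline and 214, 201 and 214 CPM in CD229neg, overlapping groups with a log2 fold change of -0.04 ± 0.08 and a 95% interval of -0.20 to 0.12. Ccnd2 (-0.58 ± 0.64) and Cdk2 (0.20 ± 0.09) were not called either. Outside the members already given, the largest log2 fold changes within each role were those of Cdc6 (2.44 ± 0.43), Cdc45 (1.55 ± 0.33), Ccne1 (3.33 ± 0.48), E2f2 (1.09 ± 0.21), Chek1 (2.00 ± 0.31), Bub1 (3.83 ± 0.40) and Pbk (3.72 ± 0.42).

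**Figure D2:**
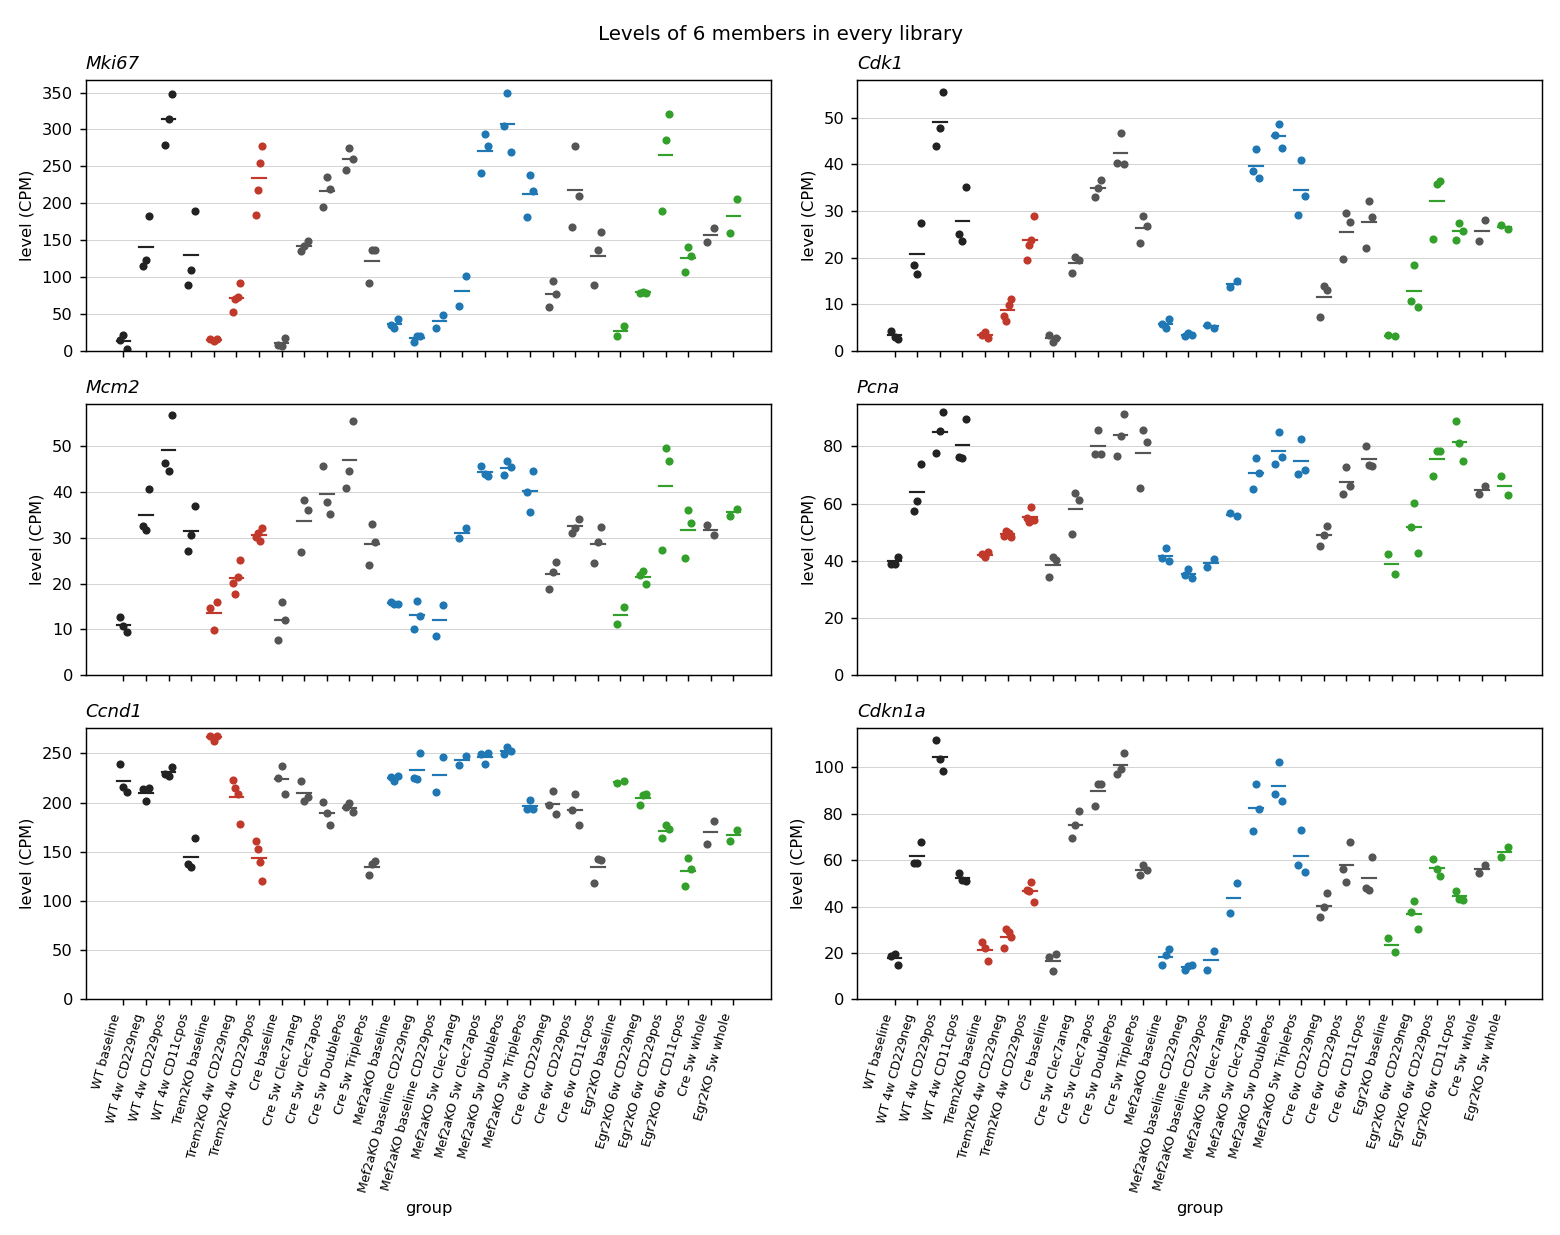
Level in CPM of Mki67, Cdk1, Mcm2, Pcna, Ccnd1 and Cdkn1a in every library, by group, each panel from 0. Points are libraries and bars group means, with the colours of genotype as for the sums. Mki67 is low at baseline and has its highest mean of each gated series in CD229pos or DoublePos, Pcna starts well above 0, and the lowest Ccnd1 means of WT, Cre and Egr2KO are in CD11cpos and TriplePos.

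The same step in Cre mice at 5 weeks (Clec7aneg minus baseline) raised 45 of 48 members and lowered none (15.5% of all genes were called higher). All 13 S-phase genes rose (median 0.85) and all 25 mitotic genes (median 2.89). Mki67 was at 8.05, 6.998 and 16.98 CPM in Cre baseline and 136, 143 and 149 CPM in Clec7aneg, with no overlap. The log2 fold changes were 3.72 ± 0.21 for Mki67, 3.51 ± 0.22 for Top2a, 2.75 ± 0.19 for Cdk1 and 3.61 ± 0.43 for Ccnb1. S-phase members gave 1.48 ± 0.16 for Mcm2, 1.08 ± 0.11 for Mcm6, 0.57 ± 0.11 for Pcna and 3.98 ± 0.31 for Rrm2, all called. E2f1 rose by 2.74 ± 0.16, Foxm1 by 1.84 ± 0.16 and Cdkn1a by 2.15 ± 0.15. Ccnd1 (-0.12 ± 0.06), Ccnd2 (-0.76 ± 0.60) and Cdk2 (0.04 ± 0.08) were again not called. Beyond those, the largest within each role were Cdc6 (2.39 ± 0.45), Gins2 (1.34 ± 0.31), Ccne1 (2.58 ± 0.30), Ccne2 (0.78 ± 0.20), E2f2 (0.89 ± 0.13), Chek1 (1.76 ± 0.34), Cenpe (4.14 ± 0.29) and Ube2c (3.97 ± 0.36).

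At 6 weeks the Cre CD229neg cells were above the same Cre baseline libraries in 37 of 48 members and below in none (5.03% of all genes higher). S-phase genes passed in 8 of 13 (median 0.58) and mitotic genes in 24 of 25 (median 2.13), Kif20a being the mitotic gene not called (0.41 ± 0.20). Mki67 was at 58.9, 95.1 and 76.4 CPM, its first library the lowest, and its log2 fold change was 2.83 ± 0.26. Pcna, at 45.2, 49.1 and 52.3 CPM against 34.3, 41.2 and 40.2 CPM in Cre baseline, did not overlap but missed the threshold (0.32 ± 0.10, adjusted p = 0.0644). The mitotic sum was 544, 549 and 565 CPM in Clec7aneg at 5 weeks and 238, 405 and 314 CPM in CD229neg at 6 weeks. These are different gates with shared baseline libraries, and the difference between them was not tested. The Cre baseline libraries carry no PE150 tag, while replicates 2 and 3 of CD229neg do. The number of members called at the 6-week diet step was 29 with the tag as a covariate and 27 without CD229neg replicate 2.

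The next comparison was between CD229neg and CD229pos cells on the same diet, which asks whether cycle genes follow the CD229 antigen within demyelinated brains. In WT at 4 weeks 41 of 47 members were higher in CD229pos and none lower (24.6% of all genes higher). All 25 mitotic genes rose (median 1.13) and 10 of 13 S-phase genes (median 0.62). Mki67 was at 115, 123 and 183 CPM in CD229neg and 279, 314 and 348 CPM in CD229pos, and Cdk1 at 18.4, 16.4 and 27.5 CPM against 44.03, 47.8 and 55.5 CPM. Neither overlapped. The log2 fold changes were 1.19 ± 0.27 for Mki67, 1.04 ± 0.27 for Top2a, 1.27 ± 0.19 for Cdk1 and 1.25 ± 0.25 for Ccnb1 among mitotic genes and 0.52 ± 0.14 for Mcm2, 0.69 ± 0.12 for Mcm6, 0.43 ± 0.08 for Pcna and 1.40 ± 0.29 for Rrm2 among S-phase genes, all called. E2f1 rose by 1.07 ± 0.19, Foxm1 by 0.91 ± 0.17 and Cdkn1a by 0.78 ± 0.11. The members not called were Mcm4 (0.26), Cdc6 (0.72), Cdc45 (0.62), Ccnd1 (0.16), Ccnd2 (1.07) and Cdk2 (0.07), all positive. Beyond the members given, the largest within each role were Gins2 (0.82 ± 0.22), Rrm1 (0.67 ± 0.12), Ccne1 (1.24 ± 0.33), E2f2 (0.80 ± 0.19), Chek1 (0.92 ± 0.25), Ube2c (1.45 ± 0.27) and Cenpe (1.37 ± 0.24).

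Other markers moved at this step as well. The endothelial list, led by Flt1, summed to 115 ± 18.1 CPM in WT CD229neg and 299 ± 18.6 CPM in CD229pos, and the microglial list to 11006 ± 702 and 8168 ± 525 CPM. Over the 81 libraries Flt1 ran from 0.68 to 316 CPM and Pecam1 from 2.94 to 88.5 CPM. Kdr ran from 11.8 to 43.7 CPM and Cdh5 from 1.06 to 8.17 CPM, and Cldn5 was at 0 in 78 libraries. In Trem2KO the endothelial list stood at 79.8 ± 5.49 and 67.1 ± 3.84 CPM across the same step, where the cycle genes also rose. The border macrophage list, led by Mrc1, was higher there without overlap, at 26.1, 14.1, 16.6 and 17.8 CPM in Trem2KO CD229neg and 88.5, 81.8, 56.7 and 55.5 CPM in CD229pos. Their part in the result was not tested.

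Trem2KO cells at 4 weeks gave 41 members higher (14.8% of all genes) and 1 lower (12.7%), with all 25 mitotic genes higher (median 1.57) and 9 of 13 S-phase genes (median 0.48). The gene that fell was Ccnd1 (-0.54 ± 0.07, adjusted p = 1.85e-06), from 223, 215, 208 and 178 to 161, 153, 139 and 120.3 CPM, groups that did not overlap. Cre cells at 6 weeks gave 38 of 48 higher and none lower (10.7% of all genes higher), with 25 mitotic genes (median 1.18) and 6 S-phase genes (median 0.48). Egr2KO cells at 6 weeks gave 43 higher (14.7% of all genes) and Ccnd1 lower (-0.27 ± 0.09; 12.8% of all genes lower), with 25 mitotic genes (median 1.45) and 12 S-phase genes (median 0.78). These 4 comparisons share no library. In all 4 of them, 35 of the 47 members tested in each were higher, against 6.63% of all genes: all 25 mitotic genes, Mcm2, Mcm6, Rrm1, Rrm2, Cdt1, Ccne1, E2f1, E2f2, Foxm1 and Cdkn1a.

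At 6 weeks the library without the PE150 tag had the lowest mitotic sum of every gate. The mitotic sum of the Cre CD229neg cells was 238 CPM in the untagged library and 359 CPM in the mean of the 2 tagged ones. In Cre CD229pos it was 600.2 and 899 CPM, in Egr2KO CD229neg 300.1 and 364 CPM and in Egr2KO CD229pos 718 and 1137 CPM. CD229pos was thus above CD229neg within both kinds of library. The border macrophage list also moved, from 73.6 ± 14.4 to 275 ± 116 CPM in Cre and from 48.3 ± 11.6 to 148 ± 42.1 CPM in Egr2KO. The endothelial list went from 94.1 ± 5.34 to 160.1 ± 51.9 CPM in Cre and from 103 ± 8.75 to 264 ± 47.98 CPM in Egr2KO. The monocyte list was at 6.52 to 13.95 CPM in Cre CD229neg and 21.8 to 30.2 CPM in CD229pos, without overlap. In Egr2KO it overlapped (8.75 to 13.4 and 10.4 to 15.6 CPM). The part of any of these lists was not tested.

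At 5 weeks the gates separate Clec7a from CD229. The Clec7a step (Clec7apos minus Clec7aneg) raised 29 of 48 members in Cre (20.9% of all genes), 21 of them mitotic (median 0.65) and 5 of S phase (median 0.31). In Mef2aKO it raised 40 (24.8% of all genes), all 25 mitotic (median 1.58) and 10 of S phase (median 0.54). Nothing fell in either. Ube2c, the conjugating enzyme that works with the anaphase-promoting complex, was at 10.51, 10.2 and 12.04 CPM in Cre Clec7aneg and 17.9, 19.9 and 19.1 CPM in Clec7apos. In Mef2aKO it was at 2.703 and 5.09 CPM in the 2 Clec7aneg libraries and 23.2, 23.3 and 26.3 CPM in Clec7apos, and neither pair of groups overlapped. Its log2 fold changes were 0.85 ± 0.22 and 2.66 ± 0.30. Called in both genotypes were 28 members (17.8% of all genes), 21 of them mitotic, with Mcm3, Mcm6, Pcna, Rrm2, Gins2, E2f1 and E2f2. The endothelial list went from 101.27 ± 7.77 to 216 ± 18.2 CPM in Cre and from 67.9 ± 1.13 to 172 ± 17.9 CPM in Mef2aKO. The border macrophage list was at 27.2, 14.6 and 22.9 CPM in Cre Clec7aneg and 154, 87.5 and 67.96 CPM in Clec7apos, and in Mef2aKO at 7.37 and 10.54 CPM and 19.4, 13.97 and 24.95 CPM. Neither list overlapped across the step in either genotype, and their part was not tested.

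Few members were called between Clec7apos and DoublePos cells. DoublePos was above Clec7apos in 2 of 48 members in Cre, E2f2 (0.41 ± 0.12) and the centromere histone gene Cenpa (0.44 ± 0.12), where 2.1% of all genes were called higher. In Mef2aKO edgeR called 0 of 48 members in either direction (0.0227% of all genes higher and 0.447% lower), 2 were under an unadjusted p of 0.05 and DESeq2 called 0. The mitotic sum was 746, 882 and 861 CPM in Cre Clec7apos and 932, 1022 and 997 CPM in DoublePos, groups that do not overlap, with a median log2 fold change of 0.23 over the mitotic genes. Mki67 gave 0.26 ± 0.16 with a 95% interval of -0.05 to 0.57. The Cre count was 0 without Clec7apos replicate 1 or 3 or without DoublePos replicate 1 or 2, 1 without Clec7apos replicate 2, and 5 without the filter on low counts. In Mef2aKO mice on the regular diet, CD229pos against CD229neg gave 0 of 48 calls by edgeR (0.135% of all genes higher) and 0 by DESeq2. The count was 6 without the filter and 1 with the PE150 tag as a covariate. Of the 48, 18 were under an unadjusted p of 0.05, a share that was not counted over all genes. There Mki67 was at 12.02, 19.98 and 20.4 CPM in CD229neg and 31.6 and 48.8 CPM in CD229pos, without overlap (1.22 ± 0.28, adjusted p = 0.135). Border macrophage markers summed to 26.6, 18.3 and 41.7 CPM and 77.6 and 178 CPM in the same groups, and their part was not tested.

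CD11c-positive cells were compared with the CD229-positive, CD11c-negative cells of the same week of diet, and here the members called were lower. In WT at 4 weeks 41 of 47 members fell and none rose (11.5% of all genes lower). Of the mitotic genes 24 of 25 fell (median -1.11) and of the S-phase genes 10 of 13 (median -0.60). Mki67 was at 279, 314 and 348 CPM in CD229pos and 89.7, 109 and 189 CPM in CD11cpos, and Rrm2 at 37.1, 41.1 and 51.2 CPM against 9.38, 11.9 and 23.7 CPM. Neither gene's groups overlapped, and replicate 3 was the highest of CD11cpos for both. The log2 fold changes were -1.30 ± 0.27 for Mki67, -1.25 ± 0.27 for Top2a, -0.83 ± 0.18 for Cdk1 and -1.11 ± 0.25 for Ccnb1, and -0.66 ± 0.14 for Mcm2, -0.53 ± 0.12 for Mcm6 and -1.55 ± 0.29 for Rrm2, all called.

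Pcna was an exception at this step, at 77.8, 85.4 and 91.9 CPM in CD229pos and 76.4, 76.1 and 89.5 CPM in CD11cpos. Its groups overlapped and its log2 fold change was -0.09 ± 0.08, with a 95% interval of -0.25 to 0.06. Ccnd1, which had not passed at either step before, fell from 229, 227 and 236 to 137, 134 and 164 CPM with no overlap (-0.69 ± 0.08, adjusted p = 8.46e-07). E2f1 fell by 0.69 on the log2 scale, Foxm1 by 1.18 and Cdkn1a by 1.01. Without CD11cpos replicate 2 the adjusted p of E2f1 was 0.0507. The others not called were Gins2 (-0.47), Cdt1 (-0.27), Cenpa (-0.39), Ccnd2 (-0.85) and Cdk2 (-0.01). Beyond these, the largest changes within each role were Cdc6 (-1.03 ± 0.34), Cdc45 (-0.83 ± 0.29), Ccne1 (-1.34 ± 0.33), E2f2 (-0.64 ± 0.19), Chek1 (-0.91 ± 0.25), Ccnb2 (-1.30 ± 0.22) and Bub1 (-1.30 ± 0.26).

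In Cre at 5 weeks (TriplePos minus DoublePos) 39 of 48 members fell and none rose (7.25% of all genes lower), with 24 mitotic genes (median -0.90) and 9 S-phase genes (median -0.49). Mki67 was at 245, 275 and 260.2 CPM in DoublePos and 91.9, 137 and 137 CPM in TriplePos, and the fall was -1.10 ± 0.16. In Mef2aKO 20 fell and none rose (5.6% of all genes lower), with 12 mitotic genes (median -0.51) and 2 S-phase genes. Mki67 was at 304, 350.1 and 269 CPM against 182, 239 and 216 CPM there, without overlap (-0.60 ± 0.16). The Mef2aKO count was 8 without DoublePos replicate 2, 7 without TriplePos replicate 1 and 8 without TriplePos replicate 3. A test of the difference between the genotypes at this step called 0 of 48 members by edgeR and 0 by DESeq2 (0.0454% of all genes higher), with 11 under an unadjusted p of 0.05 and 2 called without the filter.

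At 6 weeks Cre CD11cpos cells were lower in 6 members (Rrm2, Ccnd1, Foxm1, Mki67, Top2a and the S and G2 cyclin gene Ccna2) and higher in none (8.53% of all genes lower). The count was 11 without CD229pos replicate 1 and 1 without its replicate 2, and 1, 2 and 14 without CD11cpos replicates 1, 2 and 3. It was 19 with the PE150 tag as a covariate and 22 without the filter on low counts. Egr2KO cells were lower in 25, 18 mitotic and 4 of S phase, and higher in none (6.25% of all genes lower), and this count was 11 and 14 without CD229pos replicates 2 and 3 and 11 and 12 without CD11cpos replicates 1 and 3. The mitotic sum in Cre was 600.2, 998 and 800.3 CPM in CD229pos and 366, 556 and 686 CPM in CD11cpos, so that the groups overlapped. By tag it was 600.2 against 366 CPM in the untagged and 899 against 621 CPM in the tagged libraries. In Egr2KO it was 718 against 451 CPM and 1137 against 572 CPM. The difference between Cre and Egr2KO at the CD11c step gave 0 calls by edgeR and by DESeq2, 0 under an unadjusted p of 0.05, and 0% of all genes lower.

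The 5 CD11c comparisons share no library. In all 5, 6 of the 47 members tested in each were lower, against 1.03% of all genes: Rrm2, Ccnd1, Foxm1, Mki67, Top2a and Ccna2. These are the 6 called at the Cre step of 6 weeks. With the PE150 covariate in the 6-week fit 11 members were lower in all 5, and without the filter 18. Leaving out single libraries gave 1 (Mef2aKO DoublePos replicate 2, Mef2aKO TriplePos replicate 1 or 3, Cre CD229pos replicate 2 or Cre CD11cpos replicate 1) or 2 (Cre CD11cpos replicate 2). The microglial list was at lower means after the step as well, from 8168 ± 525 to 7352 ± 298 CPM in WT and from 6949.9 ± 87.4 to 6391 ± 175 CPM in Cre at 5 weeks. Border macrophage markers were lower without overlap in Egr2KO, at 176, 99.3 and 168 CPM in CD229pos and 26.1, 24.5 and 26.3 CPM in CD11cpos, and were at 338, 346 and 141 CPM in Cre CD229pos and 34.5, 43.8 and 216 CPM in CD11cpos, where groups overlapped. In Mef2aKO they were higher after the step, at 29.9, 23.03 and 28.2 CPM in DoublePos and 49.3, 41.05 and 72.4 CPM in TriplePos. The endothelial list was lower after the step without overlap in WT (299 ± 18.6 and 212 ± 36.7 CPM) and in Cre at 5 weeks (299 ± 18.8 and 266 ± 6.87 CPM), and higher without overlap in Cre and Egr2KO at 6 weeks (286 ± 17.8 and 329 ± 21.2 CPM in CD11cpos). At 6 weeks the monocyte list was lower after the step without overlap, at 21.8 to 30.2 and 9.29 to 16.5 CPM in Cre. In Egr2KO it was at 10.4 to 15.6 and 5.9 to 7.87 CPM, and at the other CD11c steps it overlapped. The part of these lists in the result was not tested.

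**Figure D3:**
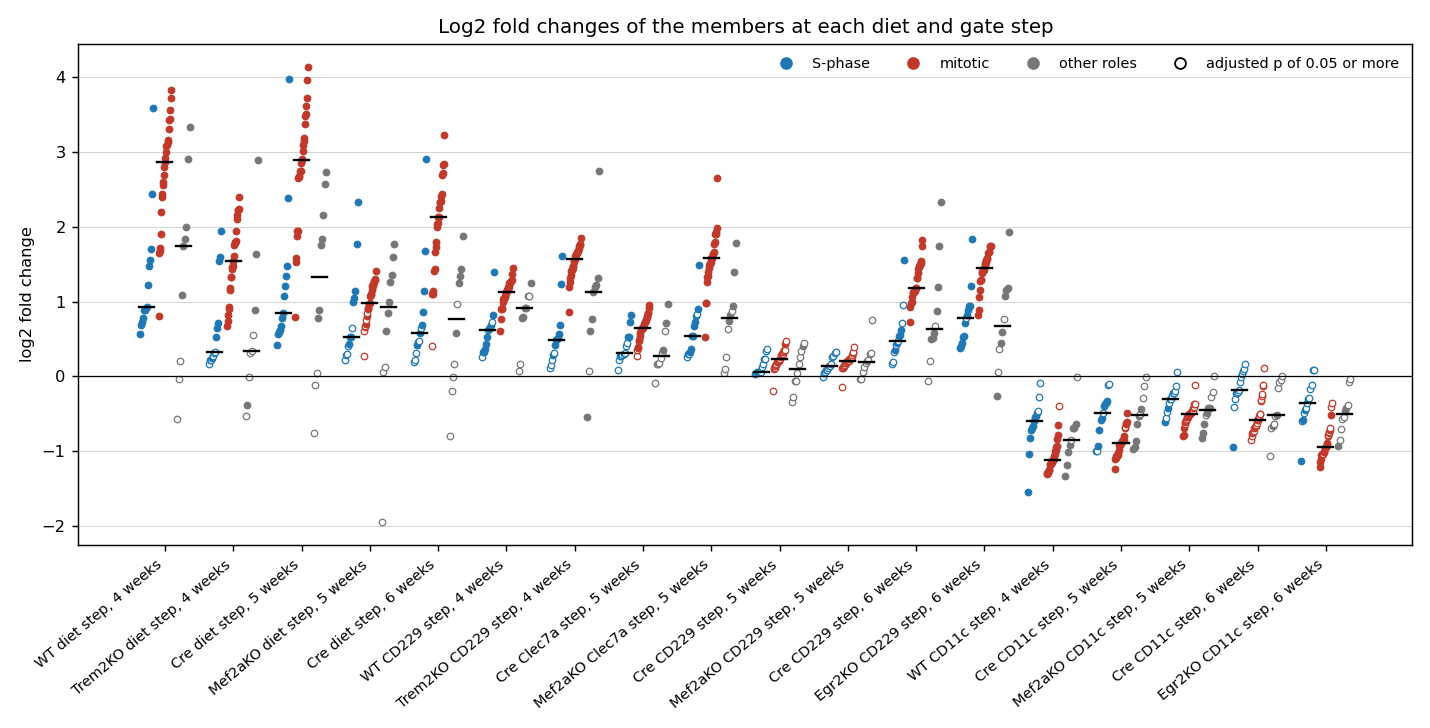
Log2 fold change of every member (vertical axis) at each diet and gate step, with S-phase genes in blue, mitotic genes in red and the 10 members of other roles in grey. Filled points passed an adjusted p of 0.05, open points did not, and black bars are medians. Medians of mitotic genes lie above those of S-phase genes at each diet step and at the CD229 steps at 4 and 6 weeks, medians lie close to 0 at those of 5 weeks, and medians of the CD11c steps lie under 0.

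Trem2 is a lipid-sensing receptor of microglia, and the question here was how its loss moved the cycle genes. At baseline edgeR called 0 of 47 members between Trem2KO and WT in either direction (0.0395% of all genes higher, 0.538% lower). Of the 47, 4 were under an unadjusted p of 0.05 and DESeq2 called 0. The count was 2 without WT baseline replicate 1 1 without Trem2KO baseline replicate 3, and 2 without the filter on low counts. The mitotic sum was 93.2, 93.9 and 111 CPM in Trem2KO and 91.03, 117 and 56.3 CPM in WT, overlapping groups, and Mki67 differed by 0.23 ± 0.41, with a 95% interval of -0.56 to 1.03.

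In CD229neg cells at 4 weeks the set was lower in Trem2KO: 38 of 47 members fell below WT and none were above (13.1% of all genes lower). They were 10 S-phase genes (median over the 13 -0.51) and 22 mitotic genes (median over the 25 -0.98), with 6 of other roles. Cdk1 was at 18.4, 16.4 and 27.5 CPM in WT and 7.51, 6.404, 9.89 and 11.2 CPM in the 4 Trem2KO libraries, and Cdkn1a at 58.6, 58.7 and 67.9 CPM against 22.1, 30.2, 28.98 and 26.9 CPM. Every Trem2KO library lay below every WT library for both. The log2 fold changes were -1.28 ± 0.20 and -1.22 ± 0.11 (adjusted p = 2.89e-05 and 3.15e-09). Among S-phase genes they were -0.76 ± 0.14 for Mcm2, -0.61 ± 0.12 for Mcm6, -0.40 ± 0.08 for Pcna and -1.38 ± 0.31 for Rrm2, all called.

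Mki67 was at 115, 123 and 183 CPM in WT CD229neg and 52.1, 70.4, 73.6 and 92.4 CPM in Trem2KO, also without overlap, and WT replicate 3 was the highest. Its log2 fold change was -0.99 ± 0.26 (adjusted p = 0.00824), beside -0.83 ± 0.27 for Top2a, -0.94 ± 0.26 for Ccnb1, -1.14 ± 0.20 for E2f1 and -0.65 ± 0.17 for Foxm1, all called. Without WT CD229neg replicate 3 the count of members was 15 in place of 38, and the adjusted p was 0.0906 for Mki67, 0.231 for Top2a, 0.139 for Ccnb1 and 0.112 for Foxm1. DESeq2 gave 0.102 for Mki67 and 0.159 for Top2a. Ccnd2 had a log2 fold change of -2.80 ± 0.90 (adjusted p = 0.0268) at low levels, 1.07, 0.789 and 2.996 CPM in WT and 0.104, 0, 0.4599 and 0.368 CPM in Trem2KO, and an adjusted p of 0.242 without WT CD229neg replicate 3. Ccnd1 (-0.05 ± 0.08), Cdk2, E2f2, Rrm1, Tyms, Cdc45, Kif20a, Cdc20 and Ttk were not called. Beyond these, the largest changes within each role were Cdc6 (-1.18 ± 0.36), Gins2 (-0.98 ± 0.23), Ccne1 (-1.23 ± 0.36), Chek1 (-0.96 ± 0.26), Bub1 (-1.21 ± 0.28) and Ccnb2 (-1.13 ± 0.23). Cdc6 was counted on different transcripts in the WT and Trem2KO libraries compared here, and the effect of that was not tested.

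In CD229pos cells 32 members were lower in Trem2KO and none higher (26.5% of all genes lower), now with 12 of 13 S-phase genes (median -0.69) and 13 of 25 mitotic genes (median -0.50). Pcna was at 77.8, 85.4 and 91.9 CPM in WT and 54.9, 53.6, 58.9 and 54.1 CPM in Trem2KO, Mcm2 at 46.3, 44.6 and 56.8 CPM against 30.1, 31.0, 29.3 and 32.1 CPM, and Cdkn1a at 112, 104 and 98.2 CPM against 47.3, 46.7, 50.5 and 41.8 CPM. None of these groups overlapped. Log2 fold changes were -0.76 ± 0.13 for Mcm2, -0.73 ± 0.11 for Mcm6, -0.69 ± 0.07 for Pcna and -1.17 ± 0.26 for Rrm2, -1.23 ± 0.10 for Cdkn1a and -1.02 ± 0.18 for E2f1 and -1.13 ± 0.17 for Cdk1, all called. Mki67 was at 279, 314 and 348 CPM against 184, 218, 255 and 277 CPM, groups that stayed apart by a narrow margin, and was not called (-0.50 ± 0.25, adjusted p = 0.0906). Top2a (-0.40 ± 0.24) and Foxm1 (-0.25 ± 0.16) were not called either, and Ccnb1 was (-0.53 ± 0.22, adjusted p = 0.045, 0.0558 by DESeq2).

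Ccnd1 at 161, 153, 139 and 120.3 CPM in Trem2KO CD229pos stood below WT CD229pos (229, 227 and 236 CPM) in all libraries (-0.75 ± 0.08, adjusted p = 6.5e-09), whereas Ccnd2 was not called (-1.13 ± 0.59). Cdk2, the kinase partner of the E-type cyclins, was lower in Trem2KO (-0.20 ± 0.08, adjusted p = 0.0461), the only call of that gene in the 39 comparisons. Beyond these, the largest within each role were Gins2 (-1.10 ± 0.21), Cdc45 (-1.02 ± 0.27), Ccne1 (-1.26 ± 0.30), Cdk2 (-0.20 ± 0.08), E2f2 (-0.63 ± 0.18), Chek1 (-0.75 ± 0.23), Stmn1 (-0.92 ± 0.13) and Ube2c (-0.89 ± 0.24). In both gates 26 of 47 members were lower (11.2% of all genes), 9 of S phase and 13 mitotic, with Ccne1, E2f1, Chek1 and Cdkn1a. That count was 14 without WT CD229neg replicate 3 and 17 without WT CD229pos replicate 3. Summed endothelial markers were at 115 ± 18.1 CPM in WT CD229neg and 79.8 ± 5.49 CPM in Trem2KO, and at 299 ± 18.6 CPM in WT CD229pos and 67.1 ± 3.84 CPM in Trem2KO. The border macrophage list was at 52.1, 51.5 and 167 CPM in WT CD229neg and 26.1, 14.1, 16.6 and 17.8 CPM in Trem2KO. In CD229pos the microglial list was at 7626 to 8674 CPM in WT and 8726 to 10126 CPM in Trem2KO. The B cell list was at 9.3 to 13.4 CPM and 20.8 to 29.2 CPM in the same groups, and neither list overlapped. The part of any of these lists in the differences was not tested.

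Trem2KO cells changed on the diet as well. From Trem2KO baseline to CD229neg 35 members rose (5.42% of all genes higher), all 25 mitotic (median 1.54) and 7 of S phase (median 0.33), and Ccnd1 fell (-0.38 ± 0.08; 1.86% of all genes lower). Mki67 went from 15.98, 13.96 and 16.2 to 52.1, 70.4, 73.6 and 92.4 CPM (2.22 ± 0.33). Pcna (0.22 ± 0.08, adjusted p = 0.087) and Cdkn1a (0.34 ± 0.12, adjusted p = 0.0916) did not pass. The test of the difference between the genotypes' diet steps called 9 of 47 members, all with the smaller step in Trem2KO (3.17% of all genes lower): Mcm2 (-1.06 ± 0.22), Pcna (-0.51 ± 0.11), Cdt1, Chek1, Cdkn1a (-1.49 ± 0.17, adjusted p = 9.1e-06), Cdk1 (-1.36 ± 0.37), Bub1b, Kif23 and Stmn1. The count was 3 without WT CD229neg replicate 3, 4 without Trem2KO baseline replicate 1 and 5 without Trem2KO baseline replicate 3 or Trem2KO CD229neg replicate 2, and it was 17 by DESeq2 and 30 without the filter on low counts. Mki67 differed by -1.22 ± 0.48 (adjusted p = 0.151) and was not called.

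For the CD229 step the same test called Kif23, a motor protein of the dividing spindle, with a larger step in Trem2KO (0.94 ± 0.29; 9.02% of all genes higher) and Ccnd1 with a lower one (-0.70 ± 0.11, adjusted p = 5.49e-05; 5.77% of all genes lower). The count of 2 was 1 without any of WT CD229neg replicate 1, WT CD229pos replicate 2, Trem2KO CD229neg replicate 1 or 2, or Trem2KO CD229pos replicate 4, and 4 without the filter. The mitotic sum per S-phase sum was 0.376, 1.25 and 1.91 in WT from baseline through CD229neg to CD229pos, and 0.407, 0.933 and 2.04 in Trem2KO (group means).

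Mef2a is a transcription factor active in macrophages, and libraries labelled Mef2aKO were compared with Cre libraries gate by gate. At baseline the mitotic genes were higher in Mef2aKO: 18 of 48 members were above Cre and none below (1.77% of all genes higher), 15 of them mitotic, with Rrm2, E2f1 and Foxm1. Mki67 was at 8.05, 6.998 and 16.98 CPM in Cre and 35.7, 30.9 and 43.5 CPM in Mef2aKO, and every Mef2aKO library was above every Cre library. The log2 fold changes were 1.79 ± 0.23 for Mki67, 1.53 ± 0.25 for Top2a, 1.10 ± 0.22 for Cdk1, 1.90 ± 0.52 for Ccnb1, 1.77 ± 0.40 for Rrm2, 0.72 ± 0.20 for E2f1 and 0.63 ± 0.18 for Foxm1 (adjusted p for Mki67 = 3.03e-06). Cenpe (2.04 ± 0.37), a kinesin of the kinetochore, and Pbk (1.80 ± 0.36) were the other mitotic genes with the largest changes. S-phase genes other than Rrm2 were not called: Mcm2 gave 0.40 ± 0.17, Mcm6 -0.24 ± 0.12 and Pcna 0.12 ± 0.11, and their sums were 219, 242 and 253 CPM in Cre and 266, 275 and 258 CPM in Mef2aKO. Ccnd1 (0.01 ± 0.06), Ccnd2 (-0.46 ± 0.57) and Cdkn1a (0.15 ± 0.16) were not called. The count was 8 without Cre baseline replicate 1 or 2 and 11 without Mef2aKO baseline replicate 1. The border macrophage list was at 104 ± 69.9 CPM in Cre baseline and 29.97 ± 6.68 CPM in Mef2aKO baseline, and the endothelial list at 96.2 ± 0.812 and 78.7 ± 4.04 CPM. Their part was not tested.

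On cuprizone the Clec7aneg cells went the other way. In Mef2aKO 13 of 48 members were lower than in Cre (3.91% of all genes lower), Cdkn1a and 12 mitotic genes, and Ccnd1 was higher (1.62% of all genes higher). Mki67 was at 136, 143 and 149 CPM in Cre and 61.2 and 101.01 CPM in the 2 Mef2aKO libraries, and Cdkn1a at 69.5, 74.996 and 81.2 CPM against 37.4 and 50.1 CPM. Neither overlapped. The called log2 fold changes were -0.78 ± 0.19 for Mki67, -0.74 ± 0.19 for Top2a, -0.75 ± 0.15 for Cdkn1a, 0.25 ± 0.06 for Ccnd1, -1.45 ± 0.31 for Ube2c and -0.93 ± 0.26 for Kif11. Not called were -0.36 for Cdk1, -0.97 for Ccnb1, -0.08 for Mcm2, -0.27 for Mcm6, -0.02 for Pcna, -0.43 for Rrm2, -1.64 for Ccnd2, -0.43 for E2f1 and -0.36 for Foxm1 (log2 fold changes). Without Mef2aKO Clec7aneg replicate 1 the count was 1 in place of 14, with an adjusted p of 0.39 for Mki67, 0.268 for Top2a and 0.134 for Cdkn1a, and DESeq2 gave 0.0621 for Top2a. Without the filter on low counts the count was 22. In the same libraries the endothelial list was at 96.5, 97.1 and 110.2 CPM in Cre and 67.1 and 68.7 CPM in Mef2aKO, the border macrophage list at 27.2, 14.6 and 22.9 CPM and 7.37 and 10.54 CPM, and the microglial list at 9004 ± 265 and 10254 ± 319 CPM. Their part was not tested.

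The Mef2aKO diet step itself raised 34 of 48 members and lowered none (5.01% of all genes higher), 19 mitotic (median 0.98) and 8 of S phase (median 0.53), and the count was 12 without Clec7aneg replicate 2. Tested as a difference between diet steps, 22 of 48 members had the smaller step in Mef2aKO (1.33% of all genes lower), 18 mitotic and 1 of S phase. The differences were -2.57 ± 0.30 for Mki67, -2.27 ± 0.31 for Top2a, -1.46 ± 0.27 for Cdk1, -2.21 ± 0.47 for Rrm2 and -1.15 ± 0.24 for E2f1. Both the higher baseline and the lower Clec7aneg level enter that difference. The count was 14 without Mef2aKO Clec7aneg replicate 1.

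At the Clec7a step the difference had the opposite sign, with 11 members (10 mitotic and Ccne1) stepping up more in Mef2aKO (1.7% of all genes higher), Mki67 by 1.11 ± 0.25 and Top2a by 0.99 ± 0.25. The count was 2 and 17 without Mef2aKO Clec7aneg replicates 1 and 2, 7 without Mef2aKO Clec7apos replicate 2 5 without Cre Clec7apos replicate 1, and 23 without the filter. DESeq2 gave adjusted p of 0.0591 for Mki67 and 0.114 for Top2a. At the CD229 step the difference test called 0 of 48 members by edgeR and by DESeq2, with 0 under an unadjusted p of 0.05 (0% of all genes higher).

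In Clec7apos and in DoublePos cells Ccnd1 was the only member called between Mef2aKO and Cre, higher by 0.39 ± 0.06 and 0.40 ± 0.06 (1.47% and 2.09% of all genes higher). Without the filter 2 and 4 members were called. The mitotic sums there were 746, 882 and 861 CPM in Cre and 892, 1080.0 and 984 CPM in Mef2aKO Clec7apos, and 932, 1022 and 997 CPM against 1088, 1249 and 1001 CPM in DoublePos. The first pair of groups did not overlap, by a narrow margin, and the second overlapped. In TriplePos cells 13 members were higher in Mef2aKO and none lower (2.34% of all genes higher): Rrm2 (0.75 ± 0.19), Ccnd1 (0.52 ± 0.06), E2f2, Foxm1 and 9 mitotic genes. Mki67 was at 91.9, 137 and 137 CPM in Cre and 182, 239 and 216 CPM in Mef2aKO, with no overlap (0.77 ± 0.16). The count was 4 without Cre TriplePos replicate 1, 5 and 7 without Mef2aKO TriplePos replicates 2 and 3, and 24 without the filter. The endothelial list was at 266, 259 and 272 CPM in Cre TriplePos and 179, 182 and 231 CPM in Mef2aKO, and the border macrophage list at 98.95, 86.7 and 88.8 CPM and 49.3, 41.05 and 72.4 CPM. Both lists were lower in Mef2aKO without overlap in Clec7apos and DoublePos as well (border macrophage 103 ± 44.9 against 19.5 ± 5.49 CPM in Clec7apos and 86.1 ± 12.8 against 27.04 ± 3.57 CPM in DoublePos). Their part in these differences was not tested.

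Egr2 is a transcription factor of the early growth response family. Between Egr2KO and Cre cells on cuprizone the members did not pass the test in any gate. Egr2KO baseline was not tested against Cre baseline, and no Egr2KO diet step was tested. Both Egr2KO baseline libraries carry the PE150 tag and no Cre baseline library does. Their mitotic sums overlapped (90.2 and 164 CPM against 66.4, 67.5 and 112 CPM in Cre). Sums of the 3 transcription factors did not (37.9 and 41.6 CPM against 23.4, 23.3 and 25.3 CPM). At 6 weeks edgeR called 0 of 48 members in CD229neg (0.144% of all genes higher, 0.0455% lower; 5 under an unadjusted p of 0.05, DESeq2 0). In CD229pos it called 0 (1.42% higher, 1.05% lower), while 14 were under an unadjusted p of 0.05 and DESeq2 called 1. In CD11cpos it called 0 (0.121% higher, 0.129% lower; 3 under 0.05, DESeq2 0). The CD229pos count was 1 without Cre CD229pos replicate 2 and 3 without Egr2KO CD229pos replicate 1. Without the filter on low counts 1 member was called in CD229neg and 7 in CD229pos, and with the PE150 tag as a covariate 1 and 2. Mki67 in CD229pos was at 167, 277 and 210.5 CPM in Cre and 189.6, 286 and 321 CPM in Egr2KO, with a log2 difference of 0.33 ± 0.20 and a 95% interval of -0.07 to 0.72. The difference between the genotypes at the CD229 step gave 0 calls by edgeR and by DESeq2, with 2 under an unadjusted p of 0.05 (0% of all genes higher).

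In whole-population microglia at 5 weeks, sorted without these gates, the mitotic sum was 547 and 627 CPM in Cre and 632 and 767 CPM in Egr2KO (n = 2 each), and every Egr2KO library was above every Cre library. EdgeR called 0 of 48 members (0.299% of all genes higher, 0.622% lower), with 7 under an unadjusted p of 0.05 and 0 called by DESeq2. Mki67 was at 148 and 167 CPM against 160.3 and 205 CPM, overlapping, with a log2 difference of 0.18 ± 0.11 and a 95% interval of -0.03 to 0.38. Without the filter 3 members were called. Markers of border macrophages summed to 54.2 and 48.9 CPM in Cre and 27.6 and 28.7 CPM in Egr2KO, and were lower in Egr2KO without overlap in CD229neg and CD11cpos at 6 weeks too.

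**Figure D4:**
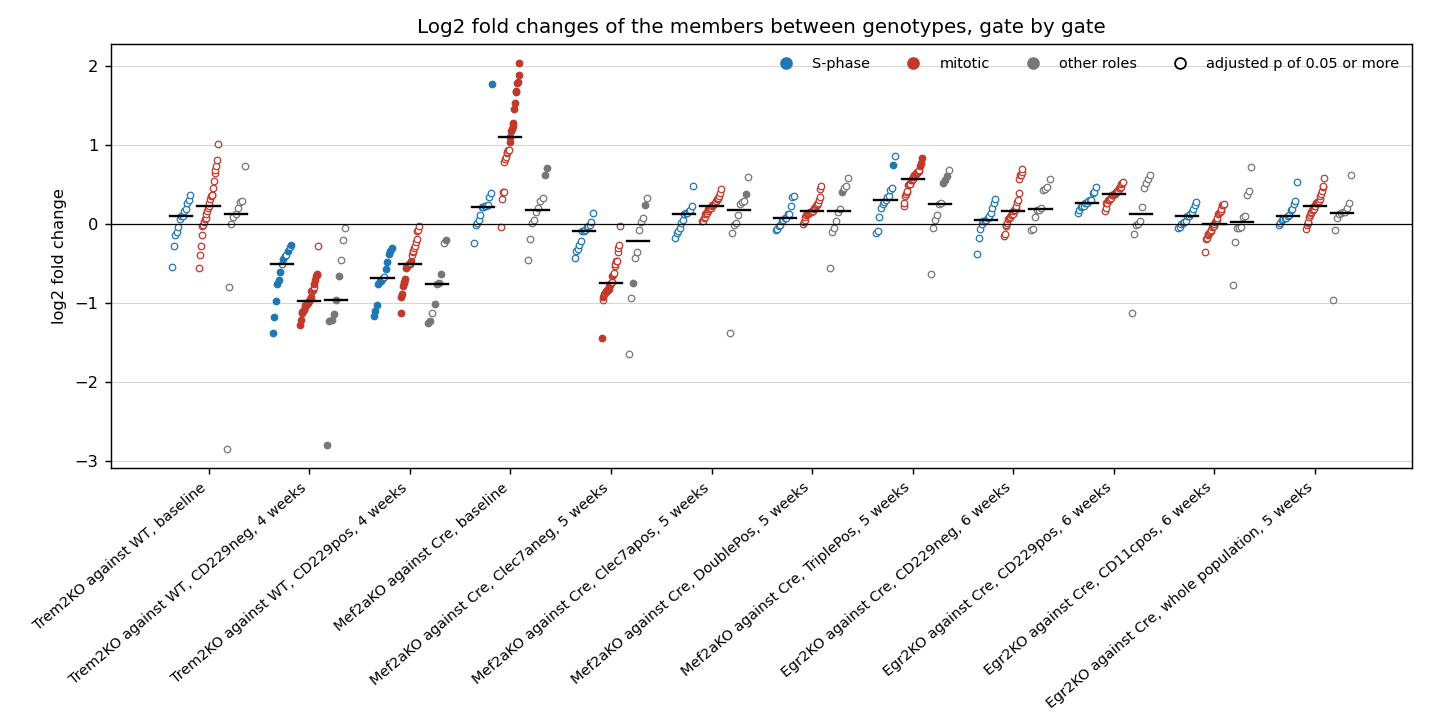
Log2 fold change of every member (vertical axis) between a knockout and its control, gate by gate, with S-phase genes in blue, mitotic genes in red and other roles in grey. Filled points passed an adjusted p of 0.05, open points did not, and black bars are medians. Trem2KO members lie under 0 in both cuprizone gates, the median of Mef2aKO mitotic genes lies above 0 at baseline and under 0 in Clec7aneg, and the Egr2KO columns hold open points only.

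The D-type cyclin genes were called higher at none of the 5 diet steps tested, where most members rose. Ccnd1 was among the most abundant members at baseline. It was lower at the Trem2KO diet step and at the CD229 steps of Trem2KO and Egr2KO, where most members were higher, went with the set at the CD11c steps, lower at all 5, and in Trem2KO CD229pos, and was higher in Mef2aKO than in Cre in all 4 cuprizone gates of 5 weeks (log2 fold change 0.25, 0.39, 0.40 and 0.52 from Clec7aneg to TriplePos). In Cre at 5 weeks it was at 222, 202 and 206 CPM in Clec7aneg and 126, 137 and 141 CPM in TriplePos, and in Mef2aKO at 239 and 247 CPM against 194, 203 and 194 CPM. Neither pair overlapped. Ccnd2 was at 0.393, 4.93 and 2.06 CPM in WT baseline and called in 3 of 39 comparisons, lower in Trem2KO CD229neg and higher at the CD229 steps of Trem2KO (2.75 ± 0.85) and of Cre at 6 weeks (2.33 ± 0.48), each in the direction of most members called there. Ccne1, whose product acts with Cdk2, was at 0, 0.968 and 0.587 CPM at WT baseline and 11.1, 13.4 and 12.8 CPM in WT CD229pos, and rose at all 4 CD229 steps of 4 and 6 weeks.

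Cdkn1a rose at the diet steps of WT, Cre at 5 weeks (2.15 ± 0.15), Cre at 6 weeks (1.25 ± 0.14) and Mef2aKO (1.25 ± 0.17), and was not called at that of Trem2KO. In the libraries it was at 97.3, 99.3 and 106 CPM in Cre DoublePos and 53.7, 57.7 and 55.7 CPM in TriplePos, a fall of -0.86 ± 0.13 with no overlap. At 6 weeks it stood at 56.3, 50.4 and 67.6 CPM in Cre CD229pos and 47.99, 47.05 and 61.4 CPM in CD11cpos, which overlapped. Chek1, the kinase that halts the cycle when replication stalls, was at 1.08, 0.968 and 0.783 CPM in WT baseline, 3.67, 3.49 and 3.99 CPM in CD229neg and 7.21, 5.96 and 7.497 CPM in CD229pos, and rose at both steps.

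Other genes of the same pathways, from lists of replication, mitotic and p53 target genes, are given as counts. Lists of G1 and CDK inhibitor genes are given as sums. Of 31 other S-phase genes tested in WT, 21 rose at the diet step, led by Uhrf1 (3.54 ± 0.31), Mcm10 (5.49 ± 0.51) and Clspn (3.03 ± 0.33), 16 rose at the CD229 step and 16 fell at the CD11c step, where 1 rose. Of all genes, 18.8% were called higher at the diet step, 24.6% higher at the CD229 step, and 11.5% lower and 11.8% higher at the CD11c step. Of 51 other mitotic genes 47 rose at the WT diet step, led by Ckap2 (3.12 ± 0.29), Kif22 (3.10 ± 0.30) and Lmnb1 (1.45 ± 0.15), 45 rose at the CD229 step and 49 fell at the CD11c step. Between Trem2KO and WT, 25 of these mitotic genes were lower in CD229neg, and in CD229pos 13 were lower and 2 higher, where 13.1% of all genes were lower in CD229neg, and 26.5% lower and 26% higher in CD229pos. At Mef2aKO baseline 15 of them were above Cre, in Clec7aneg 7 were below, and in TriplePos 20 were above (of all genes 1.77% above, 3.91% below and 2.34% above). Of 12 p53 targets tested, 5 rose at the WT diet step and 8 were lower in Trem2KO CD229pos, with 1 higher, beside the shares of all genes just given. The p53 list summed to 937, 1020 and 806 CPM at WT baseline and 787, 778 and 821 CPM in CD229neg, overlapping. In WT CD229pos it was at 669, 678 and 684 CPM. From WT baseline to CD229neg the G1 list went from 588, 614 and 566 to 630, 679 and 625 CPM, without overlap. The CDK inhibitor list overlapped there (419, 455 and 406 against 377, 427 and 364 CPM). The median log2 fold change of the other mitotic genes at the WT diet step was 2.64, and that of the other S-phase genes 0.67.

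**Figure D5:**
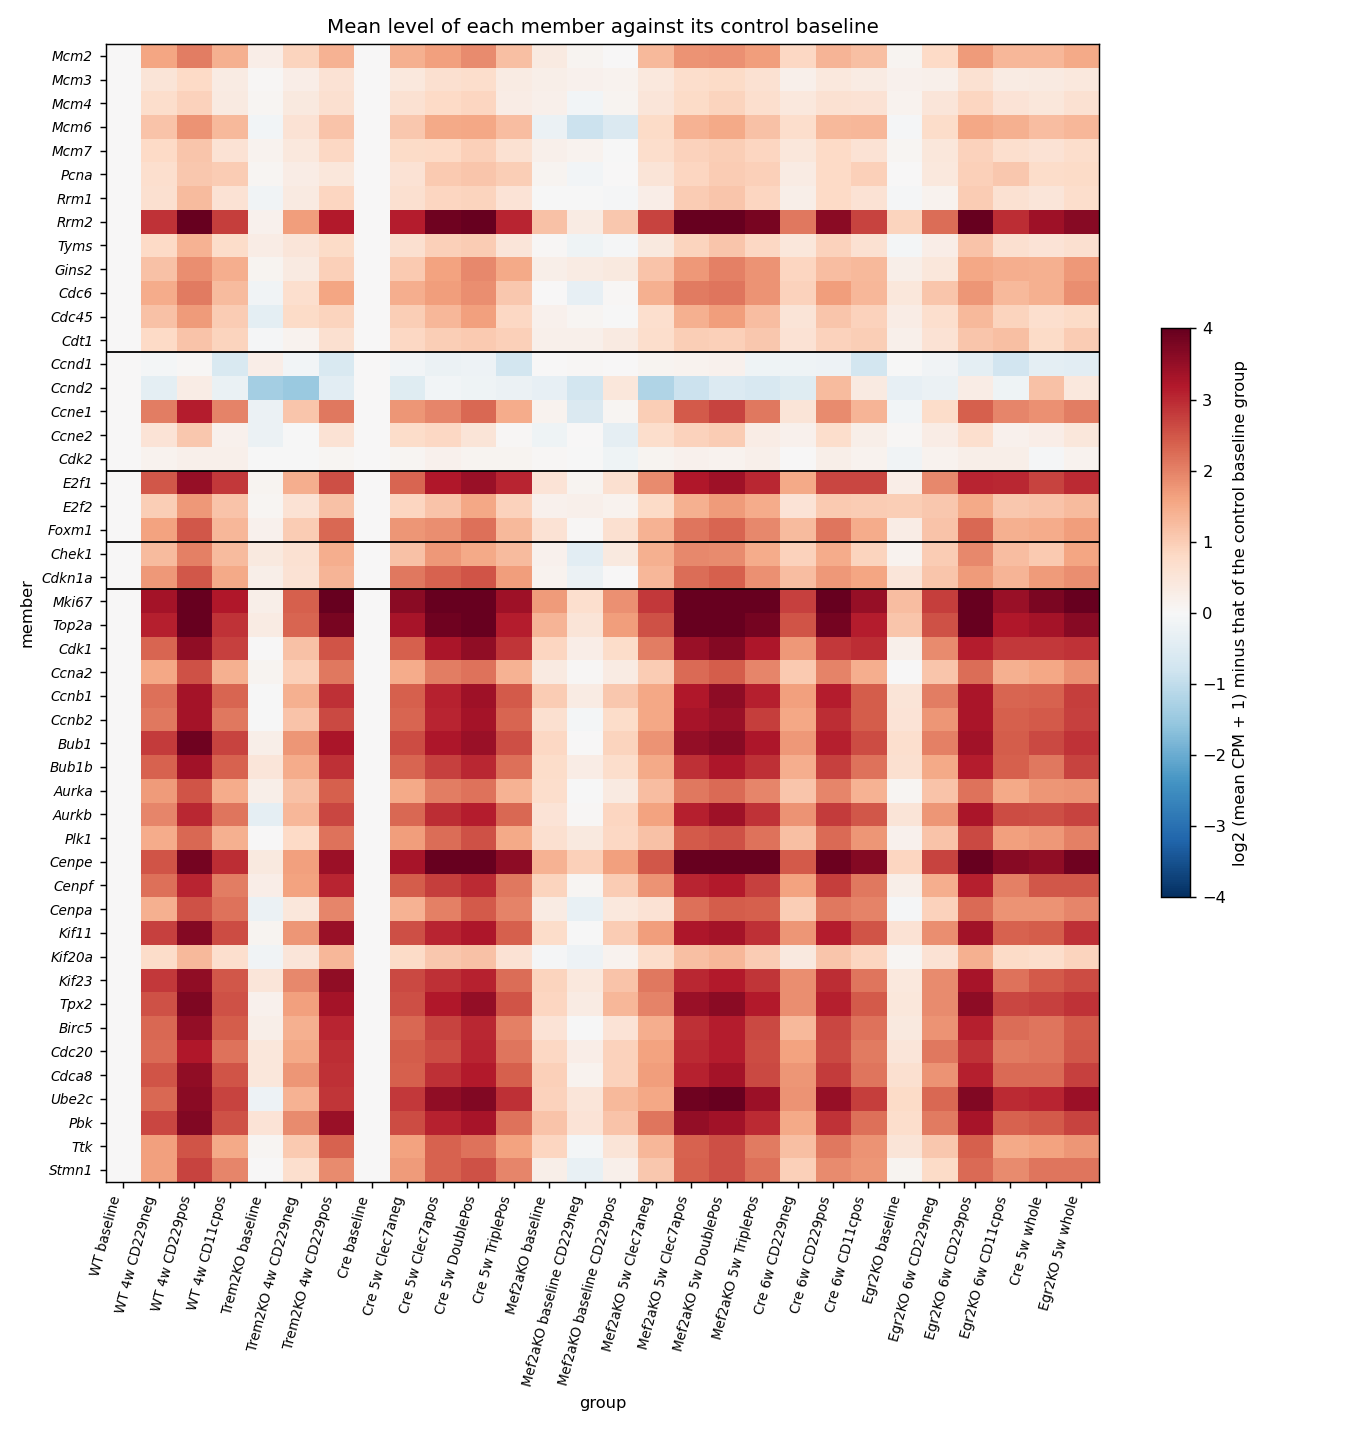
Mean level of each of the 48 members in every group, as log2 (mean CPM + 1) minus that of the control baseline group (WT baseline for WT and Trem2KO groups, Cre baseline for the others). Members run from S phase through G1/S genes, transcription factors and brakes to mitotic genes, lines divide the roles, and the colour scale ends at 4 and -4. Ccnd1 and Cdk2 stay pale or blue where Mki67, Top2a, Rrm2 and Cenpe are darkest.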

How the data were processed

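Polyadenylated RNA of sorted microglia was sequenced as strand-specific (dUTP) libraries, and the values used are the raw read counts per gene that the authors deposited in 6 tables. The submitters' processing notes name fastp 0.20.0, STAR 2.7.0f, HOMER 4.11, DESeq2 and the builds mm10 and GRCm38, without saying which made the tables. Totals of 4387075 to 13972985 counts per library limit the precision of the members listed at a few reads. Counts were tested in R 4.3.3 with edgeR 4.0.16 (filterByExpr, TMM, 1 mean per group, glmQLFit and glmQLFTest) in 5 fits of 23, 29, 11, 23 and 4 libraries, with 12647, 13204, 12628, 13187 and 12387 genes tested. For the 4-week fit 2 tables were joined at the 24910 of 25124 genes with identical counts in the shared WT baseline libraries, and 214 were left out. Of the joined genes, 1346 were on different transcripts in the 2 tables. P-values were adjusted by Benjamini-Hochberg over all genes of a fit, and an interval is the log2 fold change with normal 95% limits from its standard error. The 39 comparisons include 8 tests of a difference between genotypes. The scripts were tested on simulated data. Replicate libraries differed by more than sampling noise in all 80 pairs (chi-square per degree of freedom 1.56 or more).

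Samples were grouped by the labels. The members and lists were chosen with earlier results of these data known. Mki67, Top2a, Cdk1, Ccnb1, Mcm2, Mcm6, Pcna, Rrm2, Ccnd1, Ccnd2, Cdkn1a, E2f1 and Foxm1 were named in each comparison described in detail. Added were up to 2 more members per role of largest change among those called, and any member against the majority. Other lists are given by counts and up to 3 genes of smallest adjusted p, or by sums. Alternatives were RLE scaling, no low-count filter, DESeq2 1.42.0, a replicate block, fits without each single library and, where libraries carry it, a term for the PE150 tag. Replicate numbers come from the titles. Over all genes, deviations of same-numbered libraries from their group means correlated at 0.17 to 0.288 at the 6-week CD229 step of Cre. At that of Egr2KO they correlated at 0.121 to 0.176. There the replicate block gave 41 and 44 members in place of 38 and 44. In every other comparison the lowest correlation of a pair was 0.0939 or less.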

Additional observations from a re-analysis of the deposited data

Results flagged for a closer look

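A difference between genotypes in the same step was called by edgeR's test of that difference for 15 of the members and steps named in the text. The diet step was smaller in Trem2KO than in WT for Cdkn1a (-1.49 on the log2 scale, adjusted p = 9.1e-06), Mcm2 (-1.06, adjusted p = 0.00459), Pcna (-0.51, adjusted p = 0.00961) and Cdk1 (-1.36, adjusted p = 0.0345). Cdk1 missed the threshold without any of 7 libraries (adjusted p 0.0622 to 0.11), and Pcna without WT CD229neg replicate 3 (0.0576). The CD229 step of Ccnd1 was lower in Trem2KO (-0.70, adjusted p = 5.49e-05).

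The diet step was smaller in libraries labelled Mef2aKO than in Cre for Mki67 (-2.57, adjusted p = 5.15e-06), Top2a (-2.27, adjusted p = 9.67e-05), Cdk1 (-1.46, adjusted p = 0.0023), Ccnb1 (-2.86, adjusted p = 0.0112), Rrm2 (-2.21, adjusted p = 0.00677), E2f1 (-1.15, adjusted p = 0.00741), Foxm1 (-0.99, adjusted p = 0.0301) and Cdkn1a (-0.90, adjusted p = 0.0318). The Clec7a step was larger in Mef2aKO for Mki67 (1.11, adjusted p = 0.00889) and Top2a (0.99, adjusted p = 0.0214). Both sets of Mef2aKO differences use the same 2 Clec7aneg libraries. In 30 tests over the 2 groups of 4 libraries no library stood far from the others of its group.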

How the results depend on the processing

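The number of the 48 members called kept within 1.5 times under RLE scaling in 39 of 39 comparisons, under DESeq2 in 37 of 39, under the replicate block in 32 of 39 and without the low-count filter in 24 of 39; the cause was not tested where it did not. Signs were compared only for Mki67 and the other members named in each comparison. None of them turned under any alternative where the main fit or the alternative called the member.

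With the replicate block the counts were 28 for the Trem2KO against WT difference in diet step (in place of 9), 21 for the Cre CD11c step at 6 weeks (6), 4 for the Trem2KO difference in CD229 step (2), 2 for Mef2aKO baseline CD229pos (0), 2 for Egr2KO CD229pos (0), 2 for the whole population (0) and 1 for Trem2KO baseline (0). It ended no single member's call and added 20 of 507, among them Mki67, Top2a and Foxm1 in Trem2KO against WT CD229pos (adjusted p 0.0116, 0.00943 and 0.00728). Whether the numbers pair the libraries at other steps was not settled by correlations over all genes. Mitotic sums of Trem2KO replicates 1 to 4 rose in order in CD229neg (240, 277, 299 and 378 CPM). They did so in CD229pos too (695, 796, 958 and 1063 CPM). WT replicate 3 was highest in CD229neg, CD229pos and CD11cpos (716, 1309 and 766 CPM). In Cre at 5 weeks replicate 3 was highest in Clec7aneg and replicate 2 in the other gates. The main fits hold no term for the replicate number.

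Without the filter the counts were 2 for Trem2KO baseline, 30 and 4 for the Trem2KO differences in diet and CD229 step, 5 for the Cre CD229 step at 5 weeks, 22, 2, 4 and 24 for Mef2aKO against Cre from Clec7aneg to TriplePos, 23 and 2 for its differences in Clec7a and CD11c step, 6 for Mef2aKO baseline CD229pos, 22 for the Cre CD11c step at 6 weeks, 1 and 7 for Egr2KO CD229neg and CD229pos, and 3 for the whole population. DESeq2 gave 17 for the Trem2KO difference in diet step and 1 for Egr2KO CD229pos. With the PE150 tag as a covariate the counts were 1 for Mef2aKO baseline CD229pos, 19 for the Cre CD11c step at 6 weeks, and 1 and 2 for Egr2KO CD229neg and CD229pos.

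Leaving out 1 library in turn gave, at 4 weeks, 0 to 2 for Trem2KO baseline, 15 to 40 for Trem2KO CD229neg, 3 to 12 and 1 to 3 for the differences in diet and CD229 step. At 5 weeks it gave 0 to 2 for the Cre CD229 step, 12 to 33 for the Mef2aKO diet step, 7 to 25 for its CD11c step, 8 to 22 for Mef2aKO baseline, 1 to 19 for Clec7aneg, 4 to 14 for TriplePos, and 14 to 26 and 2 to 17 for the differences in diet and Clec7a step. At 6 weeks it gave 1 to 14 and 11 to 30 for the CD11c steps of Cre and Egr2KO and 0 to 3 for Egr2KO CD229pos. Counts of members called in every one of several comparisons were examined after the data were seen. For the 5 CD11c steps (6 members) this count was 11 with the PE150 covariate, 18 without the filter, 16 with the replicate block and 1 to 8 without single libraries. For Trem2KO against WT in both gates (26) it was 14 to 29 without single libraries; for the CD229 steps (35) and the Clec7a steps (28) it stayed within 1.5 times. In groups of 2 the library left alone was assumed to vary like the other groups. Members of few reads, such as Ccnd2, Ccne1 and Cdc6, are the least precise.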
